A study of Homo sapiens with 4 samples.

Results

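The Krüppel-like factors KLF8, KLF6, KLF5, KLF3, KLF7, KLF12, KLF15, KLF2 and KLF4 were followed in poly(A) RNA sequencing of cells labelled MG63, a human osteosarcoma line. The 9 genes were picked by name from a table of 57905 gene identifiers, with the values of the same libraries already in view, so their levels and differences are given as a description and without a test. Each symbol belonged to 1 identifier. The libraries came from cells transfected with an siRNA against KLF11, itself a Krüppel-like factor, or with a control siRNA, and every library was harvested at 48 hours. Each of the groups had 2 libraries, and the labels do not say whether these were separate cultures. The p-values given below for other genes therefore measure the spread between libraries only, which may be technical. Neither the siRNA sequences nor the number of siRNAs per target are given in the sources used here.

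Krüppel-like factors are transcription factors that bind GC-rich and CACCC elements through a zinc finger domain at the carboxyl end of the protein. The part before the zinc fingers differs between members and recruits other proteins. KLF3, KLF8 and KLF12 carry a short motif that binds the corepressor CtBP and mostly repress transcription, whereas KLF2, KLF4, KLF5, KLF6 and KLF7 are known mainly as activators. KLF15 stands somewhat apart and is best known for metabolic control in liver, muscle and heart. In mouse embryonic stem cells KLF2, KLF4 and KLF5 help to keep the undifferentiated state, and KLF4 is one of the factors used to reprogram fibroblasts.

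Levels are given as FPKM, fragments per kilobase of transcript scaled to the fragments of the library, which corrects for gene length and so allows levels of different genes to be set side by side. The FPKM values of a library summed to 591043 and 604498 with KLF11 siRNA, against 577849 and 582522 with control siRNA. Read depth is unknown because the table holds no counts. A gene was tested when its mean over the 4 libraries was at least 1 FPKM, which 15320 identifiers and 7 of the 9 KLF genes reached. KLF2 and KLF4 did not. KLF11 itself measured 5.49 and 6.74 FPKM with its siRNA, against 12.3 and 12.4 FPKM with control siRNA (log2 change -0.92, SE 0.139, adjusted p = 0.00951 in limma).

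The cell type label was compared with marker genes. Of 10 osteoblast and osteosarcoma markers 6 were tested, of which SPP1 rose, COL1A1 fell and 4 did not pass. SPP1, the osteopontin gene, measured 246.6 and 99.1 FPKM with KLF11 siRNA, against 2.31 and 2.76 FPKM with control siRNA (adjusted p = 0.00299 in limma). SPARC, COL1A2 and ALPL were at 79.2 FPKM or more in every library, but the lineage factor RUNX2 was at 0.60 and 0.65 FPKM with KLF11 siRNA, against 0.03 and 0.02 FPKM with control siRNA. COL5A1 was at 19.6 FPKM or more and BGLAP at 1.39 FPKM or less in every library. SP7, the osteoblast factor osterix, did not exceed 0.04 FPKM, and IBSP was listed at 0 in all 4. All 8 pluripotency markers passed the filter and summed to 2864 and 2388 FPKM with KLF11 siRNA, against 1465 and 1485 FPKM with control siRNA. Without POU5F1, whose level is uncertain because pseudogenes carry near copies of its sequence, the other 7 summed to 1500.4 and 1319.9 FPKM with KLF11 siRNA, against 1279 and 1308 FPKM with control siRNA. Of the 8, 5 rose, LIN28A fell, and LIN28B and TDGF1 did not pass. In the same fit 13.5% of all tested genes rose and 21.7% fell. The 7 definitive endoderm markers in the table also passed the filter, and summed to 1284 and 3013 FPKM with KLF11 siRNA, against 5095 and 5068 FPKM with control siRNA. Without CER1, the most abundant, the other 6 summed to 326 and 439 FPKM with KLF11 siRNA, against 665 and 661 FPKM with control siRNA. The label is therefore kept only as a label. In bulk RNA a smaller number of cells of a type and less RNA per cell cannot be told apart.

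Promoter sequences are shown for the 4 KLF genes that were lower with KLF11 siRNA, because KLF proteins, KLF11 included, bind the elements marked in them. The RefSeq table (GRCh38.p14) held start sites for 8 of the 9 genes, KLF3 being the other, in 18 windows of 250 bases before a start. Each sequence runs 5′ to 3′ on the gene's strand. Capitals mark GC boxes, spelled GGGCGG, and CACCC boxes, whose name is their spelling. Either was searched on both strands. KLF8 has 4 annotated starts, KLF5 has 2, and KLF6 and KLF15 have 1 each. For KLF8 the windows in chrX:55908035-55908284 and chrX:56232106-56232355 (plus strand) are given. They are called first and second in the order printed, and another KLF8 window begins upstream of both. The KLF5 window given is chr13:73058755-73059004 (plus strand). For KLF8 and KLF5 the printed windows are those with the most marked matches. The windows of KLF6 in chr10:3785210-3785459 and of KLF15 in chr3:126357409-126357658 (minus strand) are also given.
KLF8, first start: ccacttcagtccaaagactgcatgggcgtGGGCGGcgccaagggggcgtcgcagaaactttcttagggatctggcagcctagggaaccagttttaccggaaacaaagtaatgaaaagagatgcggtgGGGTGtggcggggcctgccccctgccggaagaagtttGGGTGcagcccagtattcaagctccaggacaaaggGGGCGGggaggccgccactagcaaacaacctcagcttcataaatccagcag
KLF8, second start: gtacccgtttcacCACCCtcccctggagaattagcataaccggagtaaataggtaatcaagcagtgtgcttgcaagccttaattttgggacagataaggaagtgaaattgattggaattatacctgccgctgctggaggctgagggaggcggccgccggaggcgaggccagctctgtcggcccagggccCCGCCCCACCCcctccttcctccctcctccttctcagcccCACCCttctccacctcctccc
KLF6: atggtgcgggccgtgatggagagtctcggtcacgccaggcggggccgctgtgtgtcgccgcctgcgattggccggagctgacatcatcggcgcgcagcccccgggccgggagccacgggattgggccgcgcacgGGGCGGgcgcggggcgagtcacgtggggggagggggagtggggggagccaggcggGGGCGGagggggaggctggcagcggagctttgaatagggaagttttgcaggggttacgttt
KLF5: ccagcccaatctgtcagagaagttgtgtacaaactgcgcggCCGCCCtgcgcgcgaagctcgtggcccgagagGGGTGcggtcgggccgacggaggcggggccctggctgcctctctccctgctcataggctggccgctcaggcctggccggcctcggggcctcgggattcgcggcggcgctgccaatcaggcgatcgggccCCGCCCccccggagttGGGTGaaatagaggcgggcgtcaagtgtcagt
KLF15: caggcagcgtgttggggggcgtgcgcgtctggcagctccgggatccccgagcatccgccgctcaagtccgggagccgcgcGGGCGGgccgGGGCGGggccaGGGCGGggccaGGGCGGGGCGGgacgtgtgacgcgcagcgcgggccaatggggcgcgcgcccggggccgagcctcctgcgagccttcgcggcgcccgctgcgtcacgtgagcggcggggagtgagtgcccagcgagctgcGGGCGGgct

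GC boxes were found in all 4 of these genes and were most numerous in KLF15, with 6 matches and 80.4% G and C. The first KLF8 window held 2 GC boxes and 2 CACCC boxes, and the second 1 GC box next to 3 CACCC boxes. Of the KLF8 windows not printed, chrX:55907873-55908122 held 1 of each and chrX:56232908-56233157 held 0 of either. The former overlaps the first KLF8 window and its GC box lies in the overlap, so that 1 box is counted in 2 of the 18 windows below. KLF6 had 2 GC boxes and 0 CACCC boxes, and the printed KLF5 window had 2 of each. The other KLF5 window, chr13:73054726-73054975, held 0 GC boxes and 1 CACCC box. Over all members with an annotated start, 8 of 8 genes had a GC box in at least 1 window and 10 of 18 windows held one (55.6%), while 42.6% of all 35116 windows and 46.2% of all 27305 genes in the table did. A gene with more windows is more likely to hold a match, and the members had more windows per gene than all genes did. CACCC boxes were in 9 of 18 member windows (50.0%) and in 54.7% of all windows. At least 1 window with a CACCC box was found in 4 of 8 member genes and in 58.3% of all genes. The TEAD motif GGAATG, searched on both strands because the series title names YAP, a partner of TEAD factors, was in 1 of 18 member windows, at KLF7, and in 11.9% of all windows. No CACCC match shared bases with a GC box except 2 in 1 KLF12 window. These are letter matches in windows that differ in base composition, and no binding was measured here.

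**Figure D1:**
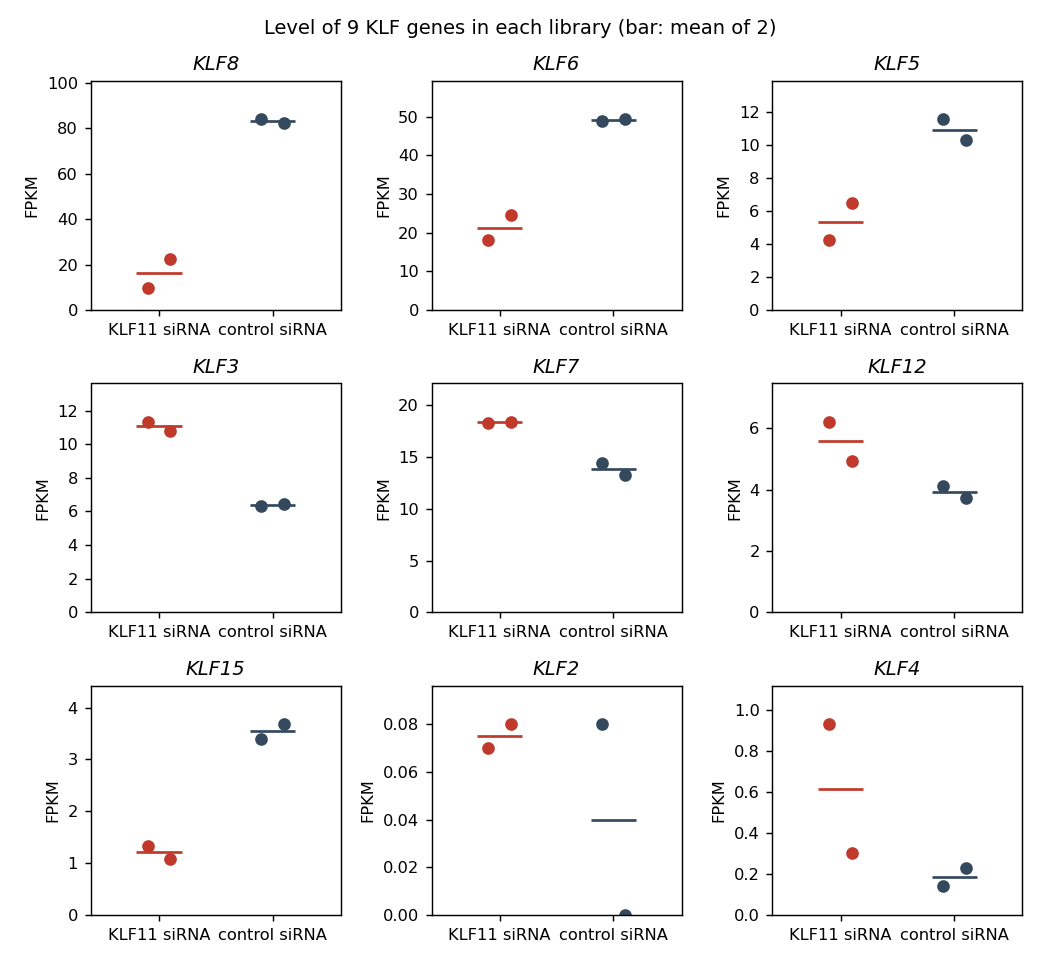
FPKM of the 9 KLF genes in each library, with KLF11 siRNA left of control siRNA in every panel, points for libraries and a bar for the mean of 2. KLF8 lies at 9.86 and 22.3 FPKM with KLF11 siRNA and above 82 FPKM with control siRNA, while KLF2 and KLF4 stay under 1 FPKM throughout.

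KLF8, a CtBP-binding factor studied mostly in invasive carcinoma, differed the most of the 9. Its level was 9.86 and 22.3 FPKM with KLF11 siRNA, against 84.0 and 82.1 FPKM with control siRNA. The groups did not overlap, as for 73.4% of tested genes (44.5% lower and 28.9% higher with KLF11 siRNA), and the KLF11 siRNA libraries kept 11.9% and 26.9% of the control mean. The means were 16.1 ± 8.79 FPKM with KLF11 siRNA and 83.0 ± 1.32 FPKM with control siRNA (SD, n = 2 each), a log2 change of -2.40 (SE 0.350) on log2(FPKM + 1). Ordered from the most negative log2 change, it stood at place 99 of the 15320 tested genes. KLF8 held the first place among the 9 KLF genes by level with control siRNA and the third place with KLF11 siRNA.

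The KLF11 siRNA replicates differed from each other for KLF8 by more than for most genes. Replicate 1 was below replicate 2 by 1.10 log2 units, a gap as large as or larger than that of 97.6% of tested genes in the same pair, where the median gap was 0.178. With replicate 1 left out the log2 change of KLF8 was -1.85 and with replicate 2 left out it was -2.95. The control pair was 0.03 log2 units apart for this gene.

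The other CtBP-binding members were higher with KLF11 siRNA. KLF3, known from blood cell and fat development, measured 11.3 and 10.8 FPKM with KLF11 siRNA, against 6.33 and 6.46 FPKM with control siRNA. Its groups did not overlap, its mean was 1.73-fold higher and its log2 change 0.70 (SE 0.118). KLF12, first described as a repressor of the transcription factor gene TFAP2A, measured 6.22 and 4.93 FPKM with KLF11 siRNA, against 4.13 and 3.72 FPKM with control siRNA. Those values did not overlap either, but the 1.29 FPKM between the KLF11 siRNA libraries exceeded the 0.80 FPKM between the nearest libraries of the groups. The log2 change of KLF12 was 0.41 (SE 0.167).

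The make-up of the CtBP-binding trio differed between the groups. KLF8, KLF3 and KLF12 together summed to 27.4 and 38.0 FPKM with KLF11 siRNA, against 94.4 and 92.3 FPKM with control siRNA. KLF8 supplied 36.0% and 58.7% of that sum with KLF11 siRNA, against 88.9% and 89.0% with control siRNA. In KLF11 siRNA replicate 1 KLF3 exceeded KLF8, with a ratio of KLF3 to KLF8 of 1.15, and in replicate 2 the ratio was 0.483, against 0.0754 and 0.0787 with control siRNA.

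Among the activators, KLF6 and KLF5 were lower with KLF11 siRNA. KLF6, an immediate early gene and candidate tumour suppressor found in most tissues, measured 18.0 and 24.6 FPKM with KLF11 siRNA, against 48.9 and 49.3 FPKM with control siRNA. No library of one group fell in the range of the other, and the log2 change was -1.18 (SE 0.156). KLF5, an activator tied to proliferation of epithelial cells, measured 4.23 and 6.47 FPKM with KLF11 siRNA, against 11.5 and 10.3 FPKM with control siRNA (log2 change -0.93, SE 0.204). As for KLF8, the lower KLF11 siRNA value of KLF6 and of KLF5 was that of replicate 1, at 36.7% and 38.8% of the control means, while replicate 2 was at 50.0% and 59.3%. KLF6 became the most abundant of the 9 with KLF11 siRNA, at a mean of 21.3 ± 4.61 FPKM, although KLF7 at 18.3 ± 0.106 FPKM and KLF8 at 16.1 ± 8.79 FPKM lay within the spread of their libraries (SD, n = 2 each).

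KLF7, a widely expressed activator needed for neuron development in mice, was slightly higher. It measured 18.3 and 18.4 FPKM with KLF11 siRNA, against 14.5 and 13.3 FPKM with control siRNA. The groups did not overlap, and the log2 change was 0.38 (SE 0.104), the smallest of the 7 tested members in size.

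KLF2 and KLF4, which act in endothelium and in epithelia and stem cells, were barely detected. KLF2 was at 0.07 and 0.08 FPKM with KLF11 siRNA, against 0.08 FPKM and a listed 0 with control siRNA. KLF4 was at 0.93 and 0.30 FPKM with KLF11 siRNA, against 0.14 and 0.23 FPKM with control siRNA. The KLF4 groups did not overlap, but the lower KLF11 siRNA library exceeded the higher control by only 0.07 FPKM. KLF2 overlapped. Without counts it cannot be said how many fragments stood behind these values.

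KLF15, which switches on genes of glucose and amino acid metabolism, measured 1.33 and 1.08 FPKM with KLF11 siRNA, against 3.40 and 3.68 FPKM with control siRNA. Its values did not overlap between the groups, and it was 2.94-fold lower by the means (log2 change -1.04, SE 0.177). Unlike KLF8, KLF6 and KLF5, it was not lower in KLF11 siRNA replicate 1 than in replicate 2. Among the members tested it was the least abundant, so its log2 change depended most on the pseudocount, from -1.49 at a pseudocount of 0.1 to -0.46 at a pseudocount of 5.

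With KLF11 siRNA the order of the 9 by mean level was KLF6, KLF7, KLF8, KLF3, KLF12, KLF5, KLF15, KLF4 and KLF2. Neighbours whose libraries overlapped there, so that their order is not resolved, were KLF6 and KLF7, KLF7 and KLF8, KLF8 and KLF3, and KLF12 and KLF5. With control siRNA the order was KLF8, KLF6, KLF7, KLF5, KLF3, KLF12, KLF15, KLF4 and KLF2, and no neighbours overlapped. By their nearest libraries the closest were KLF12 and KLF15, at 3.72 and 3.68 FPKM. Their means were 3.93 ± 0.290 FPKM and 3.54 ± 0.198 FPKM (SD, n = 2 each).

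Summed over the 9 genes, the level was 70.3 and 88.9 FPKM with KLF11 siRNA, against 173 and 169 FPKM with control siRNA. Without KLF8 the sums were 60.4 and 66.6 FPKM with KLF11 siRNA, against 89.0 and 87.0 FPKM with control siRNA. The share of KLF8 in the sum of the 9 was 14.0% and 25.1% with KLF11 siRNA, against 48.6% in each control library. KLF6 kept a like share, 25.7% and 27.6% with KLF11 siRNA, against 28.3% and 29.2% with control siRNA, and KLF7 supplied 26.0% and 20.7% with KLF11 siRNA, against 8.37% and 7.85% with control siRNA.

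**Figure D2:**
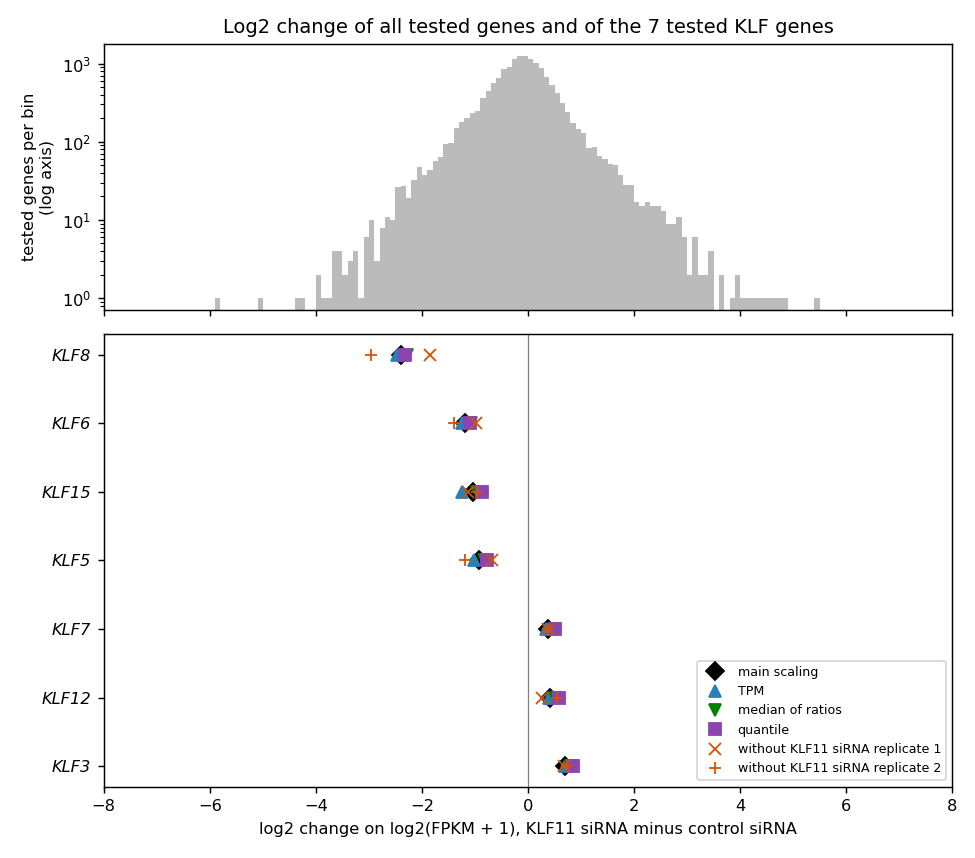
Upper panel, number of tested genes per bin of log2 change (log axis), and lower panel, log2 change of the 7 tested KLF genes under different scalings and with either KLF11 siRNA library left out. KLF8 lies between -2.95 and -1.85 and KLF3, KLF12 and KLF7 lie above 0 in all of them.

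In the fit across all genes, limma with Benjamini-Hochberg adjustment over 15320 genes, 35.2% of tested genes were called at 0.05, 13.5% higher and 21.7% lower with KLF11 siRNA. Of the 7 tested members 2 were called higher and 4 lower. Since the members were chosen with this contrast in view, nothing is read from that count. Over the tested genes the log2 change had a median of -0.11, and median-of-ratios scaling, which brought it to -0.01, left KLF8, KLF6, KLF5 and KLF15 below 0 and KLF3, KLF7 and KLF12 above 0. It gave 2728 genes higher and 2664 lower, against 2071 higher and 3329 lower without it. With either control library left out no gene at all was called by limma, and between 1761 and 1826 genes were higher and between 2635 and 3032 lower at an unadjusted p under 0.05.

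The rest of the KLF and SP family is given for comparison. Of 7 other KLF genes in the table, KLF1, KLF9 and KLF17 were below the filter. KLF10, the close relative of KLF11 that is also induced by TGF-beta, rose to 16.5 and 14.1 FPKM with KLF11 siRNA, against 5.89 and 5.65 FPKM with control siRNA (log2 change 1.27, adjusted p = 0.00467). KLF13 and KLF16 did not pass, with log2 changes of 0.08 and -0.01. Among 9 SP genes, which share the KLF type of zinc fingers, 6 were tested, SP5 rose and SP8 fell. Of the tested SP genes 33.3% were called, and of the 4 tested other KLF genes, KLF11 included, 50.0%, against 35.2% of all tested genes. SP5, a Wnt target in embryonic cells, measured 49.4 and 47.6 FPKM with KLF11 siRNA, against 16.1 and 11.9 FPKM with control siRNA (adjusted p = 0.00358). SP8 measured 5.27 and 5.69 FPKM with KLF11 siRNA, against 10.6 and 8.48 FPKM with control siRNA (adjusted p = 0.0235), and had an adjusted p of 0.0654 in limma without KLF11 siRNA replicate 1, a fit in which the control pair alone supplies the spread and the lone library is assumed to vary like it. KLF14 and KLF18 were not analysed here.

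The genes whose 4 values ran most like those of KLF8, by Euclidean distance between centred log2 values over the 4 libraries, were GATA4, CRB3, KRT19, BSPRY and FOXA3. GATA4 was the nearest, at a distance of 0.0576 and with 12.2 and 28.3 FPKM with KLF11 siRNA, against 108 and 104 FPKM with control siRNA. FOXA3 was the farthest of the 5, at a distance of 0.118 and with 1.62 and 4.59 FPKM with KLF11 siRNA, against 18.5 and 17.1 FPKM with control siRNA. With 4 libraries in 2 groups many genes can share a profile, and the likeness is a description only.

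GATA4 is also an endoderm marker, and the endoderm markers moved alongside KLF8, KLF6 and KLF5. Of the 7 listed in the table, 4 fell, namely SOX17, FOXA2, GATA4 and GATA6, EOMES rose, and CER1 and CXCR4 did not pass, where 21.7% of all tested genes fell and 13.5% rose. Their median log2 change was -2.08, against -0.11 for all tested genes. The endoderm regulator SOX17 measured 19.2 and 47.9 FPKM with KLF11 siRNA, against 133 and 131 FPKM with control siRNA (adjusted p = 0.017), and FOXA2 measured 4.65 and 12.8 FPKM with KLF11 siRNA, against 47.6 and 44.1 FPKM with control siRNA (adjusted p = 0.0125). Each of the 6 markers with a negative log2 change was lower in KLF11 siRNA replicate 1 than in replicate 2, as KLF8, KLF6 and KLF5 were. None of the 7 was at 0 in any library. That replicate order was not particular to endoderm markers. It also held for KLF11, COL1A1 and the 6 epithelial markers that fell, but not for KLF15 and LIN28A, which were lower too. Its share over all genes that fell was not counted. Of 7 epithelial markers 6 fell and 0 rose, where 21.7% of all tested genes fell and 13.5% rose, with sums of 1167 and 1404 FPKM with KLF11 siRNA, against 2524 and 2329 FPKM with control siRNA. The part of these cell type markers in the KLF values was not tested.

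**Figure D3:**
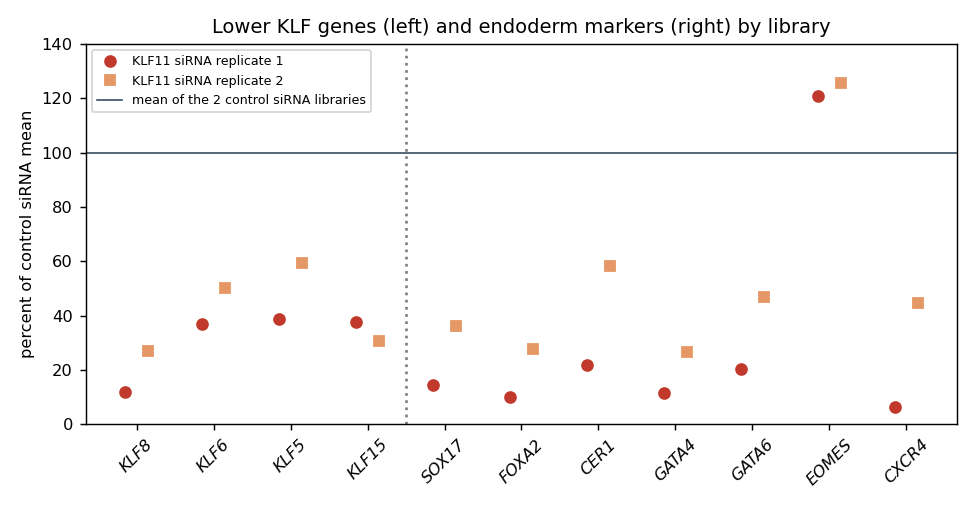
Level in each KLF11 siRNA library as a percent of the mean of the 2 control siRNA libraries (line at 100), for the 4 lower KLF genes and the 7 endoderm markers. KLF8 is at 11.9% and 26.9% and GATA4 at 11.5% and 26.6%, and replicate 1 is the lower in every gene with a value under 100 apart from KLF15.

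Proteins that KLFs bind, or that set their stability or transcription, were taken from a list of 29 genes, of which 27 were tested. With KLF11 siRNA 2 rose, 5 fell and 20 did not pass, so that 25.9% were called, against 35.2% of all tested genes, and the median log2 change was -0.03, against -0.11. The corepressors of the CtBP pair went opposite ways. CTBP2 rose to 84.1 and 76.5 FPKM with KLF11 siRNA, against 58.0 and 56.9 FPKM with control siRNA (adjusted p = 0.0155), and CTBP1 fell to 75.0 and 85.8 FPKM with KLF11 siRNA, against 125 and 113 FPKM with control siRNA (adjusted p = 0.0163). FHL3, a LIM protein that binds KLF3, rose to 32.3 and 26.3 FPKM with KLF11 siRNA, against 16.0 and 13.9 FPKM with control siRNA (adjusted p = 0.00988). HDAC1, a histone deacetylase, fell to 33.1 and 49.8 FPKM with KLF11 siRNA, against 84.5 and 90.1 FPKM with control siRNA (adjusted p = 0.0145). HDAC2, YAP1 and WWP1, a ubiquitin ligase of KLF5, were the other 3 that fell. Median-of-ratios scaling gave 4 higher and 2 lower, and without either control library no member was called by limma, with 2 higher and 3 to 5 lower at an unadjusted p under 0.05.

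Genes reported as targets of the 9 factors were taken from 5 lists with 47 different genes, of which 36 were tested. Of these 16 rose, 5 fell and 15 did not pass, so that 58.3% were called, against 35.2% of all tested genes. Their median log2 change was 0.26, against -0.11. The lists overlap and were written with earlier results of these libraries known. They hold no direction of regulation, so whether a target moved as its factor would predict was not counted. Without KLF11 siRNA replicate 2 the number that fell was 9, and without either control library none was called by limma, with 15 to 16 higher and 4 lower at an unadjusted p under 0.05.

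Among 7 reported KLF8 targets, 2 rose, 2 fell and 3 did not pass, with a median log2 change of -0.46. Over all tested genes 13.5% rose, 21.7% fell and the median was -0.11. EPSTI1 fell to 0.68 and 7.10 FPKM with KLF11 siRNA, against 74.8 and 74.9 FPKM with control siRNA (log2 change -4.36, SE 0.707, adjusted p = 0.0112 in limma). CDH1, the gene of E-cadherin, fell to 20.9 and 34.5 FPKM with KLF11 siRNA, against 58.5 and 52.3 FPKM with control siRNA (adjusted p = 0.0269 in limma). CDH1 is also 1 of the 7 epithelial markers, of which 6 fell. CCND1, the cyclin D1 gene, rose to 114 and 117 FPKM with KLF11 siRNA, against 68.2 and 58.4 FPKM with control siRNA (adjusted p = 0.00573). MMP9, a gelatinase, measured 1.41 and 2.36 FPKM with KLF11 siRNA, against 0.45 and 0.35 FPKM with control siRNA. It is counted among the 2 that rose, but it reached the filter of 1 FPKM only through the KLF11 siRNA libraries, so no p is given. Its log2 change was 1.02, from 0.35 at a pseudocount of 5 to 1.95 at a pseudocount of 0.1. Without KLF11 siRNA replicate 2 it was 0.78.

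Of 10 tested KLF6 targets 3 rose and 2 fell, with a median log2 change of 0.12, where 13.5% of all tested genes rose, 21.7% fell and the median was -0.11. CDKN1A, the p21 gene, is a reported target of KLF6, KLF4 and KLF7, and it rose to 16.2 and 9.09 FPKM with KLF11 siRNA, against 2.12 and 2.11 FPKM with control siRNA (log2 change 2.08, adjusted p = 0.00685). PLAU, the urokinase gene, rose to 24.4 and 27.0 FPKM with KLF11 siRNA, against 11.1 and 9.86 FPKM with control siRNA (adjusted p = 0.00418). TGFB1 rose to 78.6 and 87.5 FPKM with KLF11 siRNA, against 55.4 and 52.6 FPKM with control siRNA (adjusted p = 0.00973). COL1A1, a collagen gene, fell to 11.9 and 15.8 FPKM with KLF11 siRNA, against 23.3 and 22.3 FPKM with control siRNA (adjusted p = 0.0234 in limma).

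For KLF5, 6 of 9 tested targets rose and 0 fell, with a median log2 change of 0.43, where 13.5% of all tested genes rose, 21.7% fell and the median was -0.11. TAGLN, a smooth muscle actin-binding protein, rose to 1206 and 1048 FPKM with KLF11 siRNA, against 213 and 190 FPKM with control siRNA (adjusted p = 0.00136). It is also 1 of 6 mesenchymal markers, of which 5 were tested, 4 rose and S100A4 fell. VIM, the vimentin gene, measured 808 and 799.9 FPKM with KLF11 siRNA, against 144 and 131 FPKM with control siRNA, and THY1 and CD44 had log2 changes of 2.80 and 2.87. These markers summed to 2108 and 1935 FPKM with KLF11 siRNA, against 378 and 336 FPKM with control siRNA, none was at 0, and their part in the target values was not tested. PDGFA, a growth factor, rose to 44.6 and 31.7 FPKM with KLF11 siRNA, against 8.83 and 7.31 FPKM with control siRNA (adjusted p = 0.0037). CCNB1, the cyclin B1 gene, rose to 196 and 179.8 FPKM with KLF11 siRNA, against 138 and 139 FPKM with control siRNA (log2 change 0.43, adjusted p = 0.0175). CDK1, its kinase partner, and BIRC5, the survivin gene, rose by 0.51 and 0.32 log2 units.

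Among 8 tested targets of KLF2 and KLF4, 5 rose and 1 fell, with a median log2 change of 1.16, where 13.5% of all tested genes rose, 21.7% fell and the median was -0.11. POU5F1, SOX2 and NANOG, bound by these factors in mouse embryonic stem cells, were among those that rose, with log2 changes of 2.73, 1.52 and 1.92, while KLF2 and KLF4 themselves stayed under 1 FPKM. As said above, the POU5F1 level is uncertain because of its pseudogenes. The endothelial targets NOS3, THBD and S1PR1 were at 2.52 FPKM or less in every library. For KLF3, KLF7, KLF12 and KLF15 as 1 list, 3 of 7 tested targets rose and 2 fell. The median log2 change of this list was -0.38, against -0.11 for all tested genes. LGALS3, the galectin-3 gene, rose to 4.19 and 4.76 FPKM with KLF11 siRNA, against 1.82 and 0.87 FPKM with control siRNA (adjusted p = 0.0181 in limma). L1CAM, an adhesion molecule gene, rose to 21.6 and 24.9 FPKM with KLF11 siRNA, against 15.2 and 15.5 FPKM with control siRNA (adjusted p = 0.0182 in limma). BCAT2, a branched-chain amino acid enzyme under KLF15 control in mouse muscle, fell to 6.67 and 12.0 FPKM with KLF11 siRNA, against 24.2 and 22.4 FPKM with control siRNA (adjusted p = 0.0184).

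**Figure D4:**
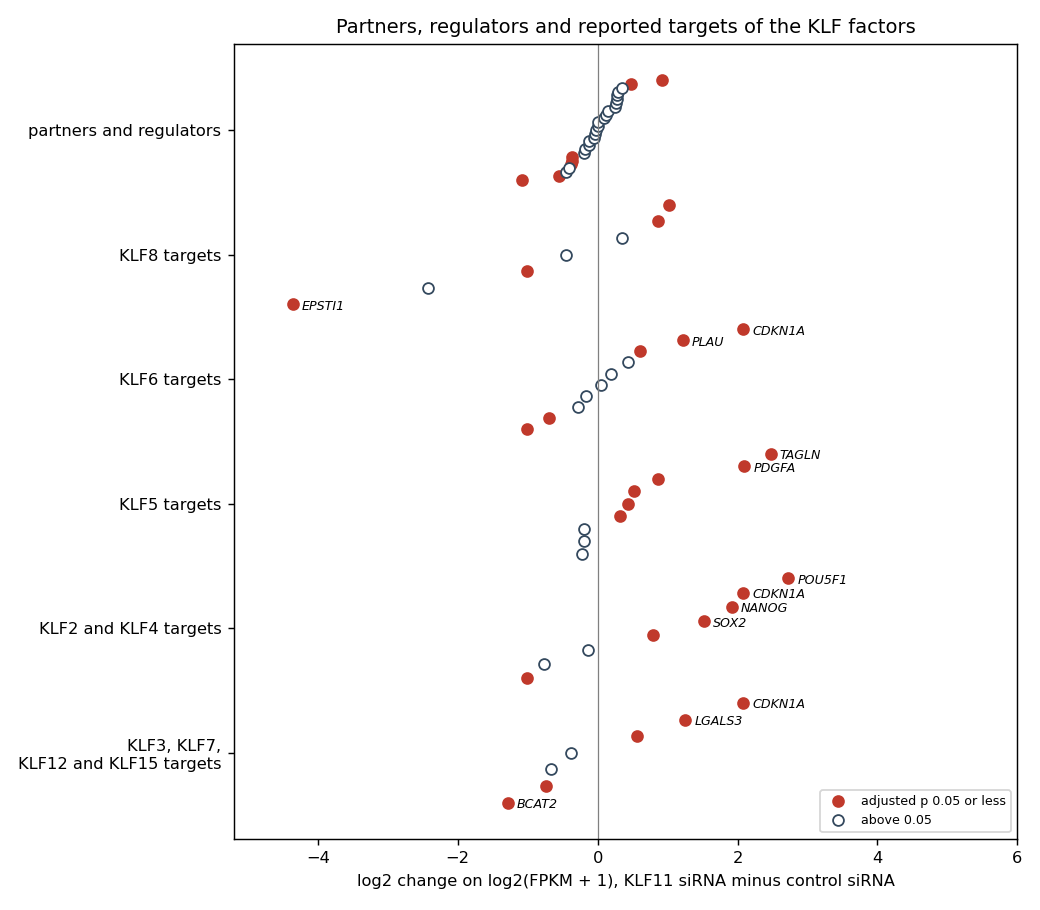
Log2 change of the tested partners, regulators and reported targets, 1 row per list, filled where the adjusted p was 0.05 or less. POU5F1, whose level is uncertain, at 2.73 and EPSTI1 at -4.36 are the extremes, and the partners and regulators lie between -1.09 and 0.92.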

How the data were processed

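RNA was sequenced from 4 libraries of cells labelled MG63, 2 with KLF11 siRNA and 2 with control siRNA. The authors deposited FPKM values with 2 decimals, 1 column per library and 0 columns unmatched. RSEM 1.3.1, Trim Galore 0.5.0 and the builds GRCh37 and hg19 are named in the submitters' processing notes. For aligner, annotation release, strand setting and filters, the entry is: not given in the sources used here. RSEM divides reads among matching transcripts, so genes with close copies are less certain. FPKM values keep no depth.

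Genes with a mean of at least 1 FPKM were tested on log2(FPKM + 1) with limma 3.58.1 in R 4.3.3 (mean-variance trend, no block) and Benjamini-Hochberg adjustment at 0.05. Fold changes on this scale understate the change of low genes. The fit was also run on simulated data with few changed genes and the same spread in both groups. These libraries differ from that setting, so nothing is read from it here. With 2 libraries a group, the smallest two-sided p that exact permutation allows is 0.333, so permutation was not used. Replicates had Pearson correlations across genes, which are not independent replicates, of 0.976 with KLF11 siRNA and 0.982 with control siRNA, and no 2 libraries were counted as 1.

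The members and gene lists were chosen with earlier results of these data known. Named are the members, KLF11, called KLF and SP genes, the 4 smallest p-values of each list and the 5 genes nearest to KLF8. Others behind small counts, and marker genes, were named after their values were seen. Listed genes without a row (TXNIP, PECAM1, KLF14, KLF18) were not analysed here, and listed genes withheld from this text are not reported or counted in the lists. Promoters came from RefSeq (GRCh38.p14), unlike the build of the FPKM table, so they were matched by symbol only. Figures were drawn with matplotlib 3.10.9.

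Alternatives were pseudocounts of 0.1 and 5, no filter, a filter of 5 FPKM, TPM, median-of-ratios and quantile scaling, eBayes without a trend or with robust estimation, the replicate number as a block, and each library left out.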

Additional observations from a re-analysis of the deposited data

How the results depend on the processing

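The sign of the log2 change held for all 7 tested KLF genes and all 30 other named genes under the 14 alternatives that gave a value. KLF8 ranged from -2.95 to -1.85 and KLF6 from -1.40 to -0.97. Without a filter 34232 genes were tested, and 887 genes were higher and 1251 lower, with 1 partner or regulator higher and 0 lower, and 10 targets higher and 0 lower (limma; 7 partners or regulators and 7 targets were lower at an unadjusted p under 0.05). Of the 30 named genes, which were all called, 14 kept their call in every alternative with all libraries, and the other 16 lost it without the filter, where more genes were tested. Partners and regulators were 4 higher and 2 lower with median-of-ratios scaling, 4 higher with quantile normalization and 2 lower in the fit without a trend. For median-of-ratios scaling all genes split into 2728 higher and 2664 lower, for quantile normalization into 2660 and 2664, against 2071 and 3329. The cause of these moves was not tested. Leaving out 1 library in turn, where the lone library of a group is assumed to vary like the other group, gave 0 to 2291 genes higher and 0 to 3813 lower, 0 to 4 partners or regulators higher and 0 to 6 lower, and 0 to 16 targets higher and 0 to 9 lower, the zeros coming without control siRNA replicate 1 or 2.

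Replicate numbers are shared by the groups, but nothing in the labels pairs them, and the deviations of same-numbered libraries correlated at -0.07 across genes. With the replicate block 1707 genes were higher and 2644 lower, 2 partners or regulators higher and 4 lower, and 15 targets higher and 6 lower. Depth is unknown, so how far it limits KLF2 and KLF4 cannot be said.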

Other observations

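Pseudogenes and an antisense transcript of the KLF genes were barely detected. All 10 KLF pseudogenes listed were at 0.64 FPKM or less in every library, KLF8P1 being listed at 0 in all 4. KLF2P4 measured 0.09 and 0.39 FPKM with KLF11 siRNA, against 0.64 and 0.25 FPKM with control siRNA. KLF2 itself did not exceed 0.08 FPKM. It lay below both KLF2P4 and KLF2P1 in every library, so its level cannot be separated from that of these copies. KLF3-AS1, the only gene with exons over those of a member in the GENCODE 29 annotation, lies on the strand opposite to KLF3. It measured at most 0.63 FPKM, so the KLF3 level of 6.33 FPKM or more stands well above it, although the strand setting is not known.

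Of the cell types in which KLF2 and KLF4 are best known, endothelial cells were represented by 4 of 5 markers, of which TEK rose, VWF fell and KDR did not pass, and CDH5 was under the filter. Over all tested genes 13.5% rose and 21.7% fell. VWF measured 0.35 and 2.86 FPKM with KLF11 siRNA, against 12.5 and 10.7 FPKM with control siRNA (adjusted p = 0.0186 in limma). TEK measured 8.62 and 4.97 FPKM with KLF11 siRNA, against 0.56 and 0.70 FPKM with control siRNA. It reached the filter of 1 FPKM only through the KLF11 siRNA libraries, so no p is given for it. All 5 leukocyte markers stayed under 1 FPKM in every library.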
